A study of Mus musculus with 3 samples.

Results

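The inflammasome components studied here were 10 genes, namely *Nlrp3*, *Aim2*, *Nlrc4*, *Naip5*, *Mefv*, *Nek7*, *Pycard*, *Casp1*, *Casp4* and *Gsdmd*. They were taken by name from the gene probes of the arrays, whatever their values, and 17 of the 56605 gene probes carried 1 of these names, for 10 of the 26840 genes with a symbol. RNA was measured in RAW 264.7 cells, a mouse macrophage line, on 1 array for each of 3 conditions. In the LPS condition the macrophages received 50 ng/mL LPS, the cell-wall lipid of Gram-negative bacteria that activates TLR4, and no lactobacilli. In the CRL1505 + LPS and CRL1506 + LPS conditions the cells were first kept for 24 h either with CRL1505, a *Lacticaseibacillus rhamnosus* strain, or with CRL1506, a *Lactiplantibacillus plantarum* strain, at 50000000 cells/mL, washed, and then given the same dose of LPS. The LPS exposure is given as 12 h in the description of the series and as 3 h in the labels of the samples. All 3 arrays therefore carry LPS, and cells without LPS were not analysed here. The cells came from a single line, and with 1 array per condition no difference below has a replicate check or a test. The array of CRL1505 + LPS lay on another slide and in another scan run than the other 2, so for this strain the effect of the strain and that of the slide cannot be told apart.

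An inflammasome is a cytosolic complex that turns the detection of a microbial product or of damage into the activation of an inflammatory caspase. A sensor binds or responds to the signal and recruits the adapter ASC, which gathers pro-caspase-1. Active caspase-1 cleaves the precursors of IL-1beta and IL-18, and it cleaves gasdermin D, whose released part forms pores in the cell membrane. In macrophages LPS alone is known as the first, priming step, which raises the transcripts of several of these proteins, while a second signal assembles the complex. RAW 264.7 cells have been described as lacking ASC protein. The arrays measure RNA, not the assembly or the activity of any complex.

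Levels are given on a log2 scale relative to the signal at the 75th percentile of the gene probes of the same array, so that a level of 0 equals that signal. A ratio is the difference of 2 such levels, and a gene was counted as higher or lower when it differed at least 2-fold. Probes differ in how strongly they bind, so levels are compared between arrays for 1 probe and not between genes. Each gene is represented by its brightest probe. All 10 of these probes were well above background on the 3 arrays, and no member probe was saturated or marked as an outlier. The SD of the log2 ratio over 10 spots of a repeated probe had a median of 0.048 for CRL1505 + LPS against LPS and 0.043 for CRL1506 + LPS against LPS. It was larger for dim probes, 0.27 over 6 repeated probes and 0.25 over 12, with mean levels under -1. Different probes of 1 gene disagreed more, with a median SD of 0.23 and 0.22 over 5473 and 6102 genes. These spreads describe single hybridisations and hold no variation between cultures.

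The identity of the labelled cells was checked with marker genes. All 9 macrophage markers with a probe were well above background on each array. Of the T cell, B cell and epithelial markers, 1 of 3, 1 of 3 and 0 of 3 were well above background on each array, and of the fibroblast markers 1 of 3 on the CRL1506 + LPS array and 0 of 3 on the others. Of the 3 neutrophil markers with a probe, 2 were well above background on each array, though not the same ones. With CRL1505 against LPS, *S100a9* was higher by at least 3.18 on the log2 scale, *S100a8* had -1.31 and *Mpo* a bound of -0.27. Macrophage markers also moved both ways with CRL1505, with *Fcgr1* at 2.40, *Adgre1* at 2.27 and *Csf1r* at -1.47, and a list median of 0.15. The part of such shifts in the results below was not tested.

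The probes behind the 4 genes that passed the 2-fold threshold in any comparison are shown by the first 30 of their 60 bases, so that a reader can see what was measured. Their positions are those in the array files, on mouse build mm9.
Casp1, chr9:5307206-5307265, plus strand: ctatgctgagaatcgtgccaataagaagcc
Casp4, chr9:5336658-5336717, plus strand: ccagcctaagcaacacagtgggattctgtt
Nlrc4, chr17:74826172-74826231, minus strand: actatgatattagcgctattaaaggcacct
Mefv, chr16:3707274-3707333, minus strand: atggatttcaggttactcttgactgtggtc
None of these 4 probes shared a run of 20 bases with any of the other 56604 gene probes.

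Across the 10 members, the CRL1505 strain gave 2 genes at least 2-fold above LPS alone, *Casp1* and *Casp4*, and 2 as far below it, *Nlrc4* and *Mefv*. Over the 15585 genes compared, 9.9% passed the threshold on the higher side and 8.41% on the lower side. For CRL1506 no member passed it on the higher side and 1, *Mefv*, on the lower side, where 5.67% and 3.53% of 16271 genes did. Between the strains 1 member, *Nlrc4*, was past 2-fold on the lower side with CRL1505 and none on the higher side, where 7.44% and 8.96% of 15730 genes were. The median log2 ratio of the members was 0.17 for CRL1505, against 0.01 over all genes, and 0.00 for CRL1506, against -0.06. The median size of the change, regardless of its sign, was 0.73 for the members and 0.41 for all genes with CRL1505, and 0.26 for both with CRL1506. The members ranged from -1.76 to 1.22 with CRL1505 and from -1.23 to 0.62 with CRL1506. The SD of their ratios was 1.02 and 0.52, against 0.89 and 0.67 over all genes, so all genes also spread more with CRL1505. The lowest values came from the dim genes *Nlrc4* and *Mefv*. Between the strains the median size of the change was 0.39 for the members and 0.42 for all genes. The 2 comparisons with LPS share the LPS array, so their values are not independent of each other.

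**Figure D1:**
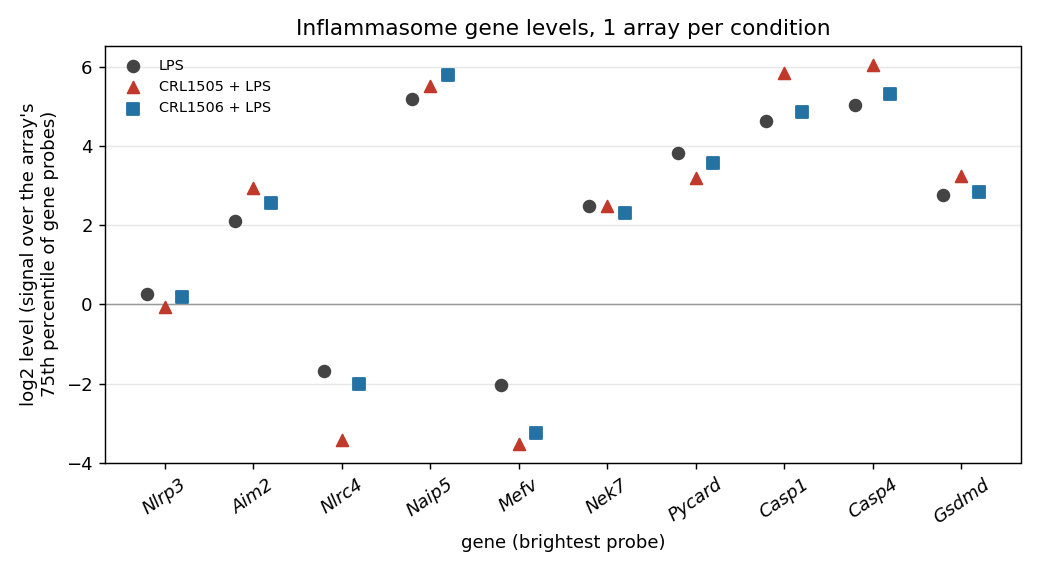
Log2 level of the brightest probe of each of the 10 inflammasome genes (x axis) on the LPS (circles), CRL1505 + LPS (triangles) and CRL1506 + LPS (squares) arrays, 1 array each, relative to the array's 75th percentile of gene probes. Within each gene, *Casp1*, *Casp4*, *Aim2* and *Gsdmd* had their highest level with CRL1505, and *Nlrc4*, *Mefv*, *Pycard* and *Nlrp3* their lowest.

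The inflammatory caspases were the members with the highest ratios for CRL1505. *Casp1* encodes caspase-1, the protease at the centre of the complex. Its log2 level was 4.63 with LPS alone, 5.85 with CRL1505 + LPS and 4.87 with CRL1506 + LPS. The level was thus highest with CRL1505, and that of CRL1506 lay close to LPS alone. The ratio to LPS was 1.22 with CRL1505, which is 2.33-fold, and 0.24 with CRL1506.

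*Casp4* encodes mouse caspase-11, which binds LPS in the cytosol and cleaves gasdermin D without a sensor protein. Its level was 5.04 with LPS, 6.05 with CRL1505 + LPS and 5.33 with CRL1506 + LPS, the same order of arrays as for *Casp1*. The ratio to LPS was 1.01 with CRL1505, or 2.02-fold, which lies just past the threshold, and 0.29 with CRL1506. Both genes have 1 probe each. Between the strains the log2 difference was 0.98 for *Casp1* and 0.73 for *Casp4*, under 2-fold for both. Among genes with a mean level over 2, as both are, 8.2% of 4818 were at least 2-fold higher with CRL1505 than with LPS.

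*Casp1* and *Casp4* are neighbours on mouse chromosome 9. In the GRCm38.p6 annotation of RefSeq, *Casp1* ends 1567 bases before *Casp4* starts, and the next gene, *Casp12*, starts 8650 bases after the end of *Casp4*. *Casp12* did not clear the background on the 3 arrays. The promoters of the pair are shown, from 250 bases before the gene start to 50 after it, since both members moved together, and that of *Aim2* follows as the member with the next highest ratio for CRL1505. Sequences are from RefSeq on build GRCm38.p6, and capitals mark matches to a searched motif.
Casp1, chr9:5298267-5298566, plus strand: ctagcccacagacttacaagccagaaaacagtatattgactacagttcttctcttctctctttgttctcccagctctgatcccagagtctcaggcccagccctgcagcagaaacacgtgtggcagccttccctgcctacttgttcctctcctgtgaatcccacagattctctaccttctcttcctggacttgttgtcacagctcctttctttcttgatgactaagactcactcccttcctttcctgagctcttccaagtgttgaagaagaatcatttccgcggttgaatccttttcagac
Casp4, chr9:5308599-5308898, plus strand: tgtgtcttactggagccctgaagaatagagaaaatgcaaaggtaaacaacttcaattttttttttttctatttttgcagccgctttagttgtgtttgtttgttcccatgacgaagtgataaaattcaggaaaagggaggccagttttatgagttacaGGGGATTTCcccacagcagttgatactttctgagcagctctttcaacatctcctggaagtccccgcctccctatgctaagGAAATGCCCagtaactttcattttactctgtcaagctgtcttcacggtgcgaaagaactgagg
Aim2, chr1:173420354-173420653, plus strand: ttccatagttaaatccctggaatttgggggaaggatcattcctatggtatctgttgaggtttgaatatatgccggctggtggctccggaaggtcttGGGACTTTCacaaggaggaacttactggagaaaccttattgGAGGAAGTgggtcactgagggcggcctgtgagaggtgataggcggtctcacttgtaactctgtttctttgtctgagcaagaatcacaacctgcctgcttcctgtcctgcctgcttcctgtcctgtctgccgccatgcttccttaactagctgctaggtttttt

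Motifs were searched on both strands in the first listed promoter of 27025 genes, among them 9 of the 10 members. The letters GGGNNTTTC, a form of the NF-kB motif, were found in 4.46% of all promoters and in those of *Casp4* and *Aim2*. *Casp4* held it at -93 and, on the other strand, at -13 from the gene start, and *Aim2* at -154. The PU.1 letters GAGGAAGT were found in 3.28% of all promoters, and among the members in *Aim2* at -113 and *Pycard* at -44. The letters GAAANNGAA for IRF, TTCNNNGAA for STAT and TGANTCA for AP-1 were found in 8.57%, 8.47% and 7.93% of all promoters and in 0 of the 9 member promoters. The *Casp1* promoter held none of the 5 searched motifs in this window. A match is a string of letters and not a measured binding site.

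*Gsdmd* encodes gasdermin D, the pore-forming target of both caspases. Its level was 2.77 with LPS, 3.26 with CRL1505 + LPS and 2.84 with CRL1506 + LPS. The array with CRL1505 was the highest, and the other 2 differed by less than the spread between probes of a gene. The ratio was 0.49 with CRL1505 and 0.07 with CRL1506, both under the threshold. The other *Gsdmd* probe gave 0.32 and -0.11. With CRL1505 the ratio of *Casp1* exceeded that of *Gsdmd* by 0.73, and that difference does not depend on any scaling by a constant between arrays.

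*Pycard* encodes ASC, the adapter that joins sensors to caspase-1. Its level was 3.82 with LPS, 3.20 with CRL1505 + LPS and 3.59 with CRL1506 + LPS. LPS alone had the highest level and CRL1505 the lowest, opposite to the order of the caspases. The ratio was -0.62 with CRL1505 and -0.24 with CRL1506, both under the threshold, though scaling to the spiked-in control RNAs put the first past it, at -1.16. Within the CRL1505 comparison *Casp1* and *Pycard* differed by 1.84 on the log2 scale, and within that of CRL1506 by 0.47. The *Pycard* probe lies at chr7:135136241-135136300 on the minus strand of mm9. A second probe with the name *Pycard* lies on the opposite strand, at chr7:135140025-135140084, and was well above background on the CRL1506 + LPS array alone, so it was not read as a measure of ASC.

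*Nek7*, a kinase that NLRP3 needs for its assembly, had levels of 2.498 with LPS, 2.498 with CRL1505 + LPS and 2.31 with CRL1506 + LPS. The 3 arrays lay within the spread between probes of a gene. The ratios were 0.00 and -0.19. A second *Nek7* probe gave -0.41 and -0.40, and the third stayed near background throughout.

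**Figure D2:**
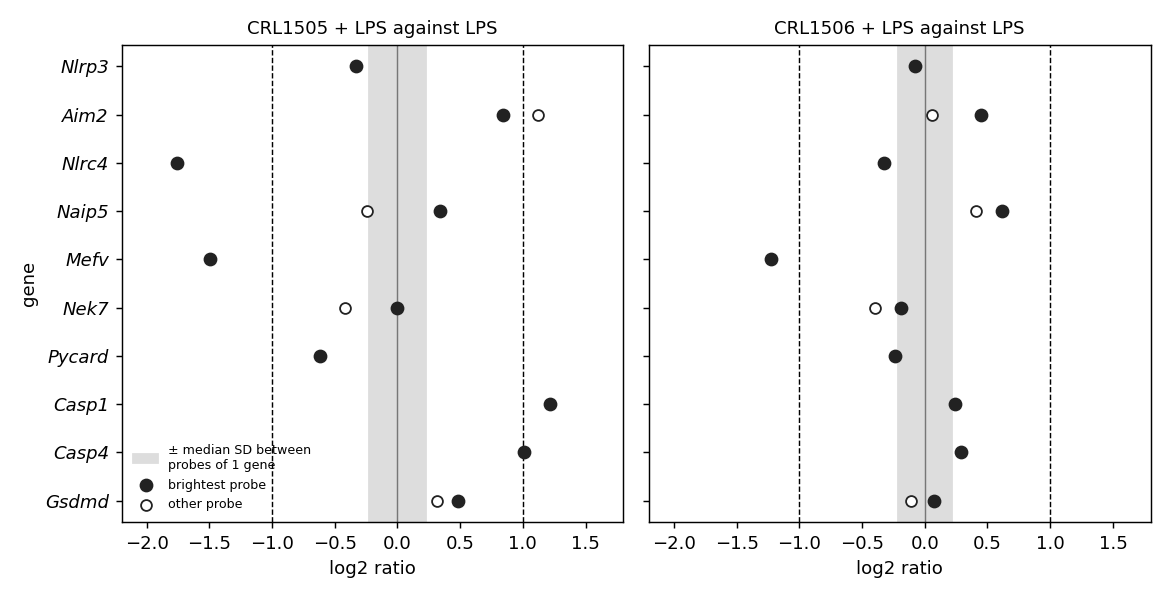
Log2 ratio to LPS (x axis) of each inflammasome gene for CRL1505 + LPS (left) and CRL1506 + LPS (right), with the brightest probe filled, other probes measured on both arrays open, the grey band ± the median SD between probes of a gene and dashed lines at 2-fold. *Casp1* and *Casp4* lie past 2-fold on the higher side with CRL1505 alone, *Nlrc4* past it on the lower side with CRL1505 alone, and *Mefv* past it with both strains.

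The sensors did not move as a group. *Nlrp3* encodes the sensor that responds to potassium loss and many kinds of cell stress. Its level was 0.26 with LPS, -0.07 with CRL1505 + LPS and 0.19 with CRL1506 + LPS. The values on the LPS and CRL1506 + LPS arrays were close, and CRL1505 was the lowest. Its ratios were -0.33 and -0.07, and *Casp1* exceeded it by 1.55 within the CRL1505 comparison.

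*Aim2* encodes a sensor of cytosolic double-stranded DNA. Its level was 2.11 with LPS, 2.95 with CRL1505 + LPS and 2.56 with CRL1506 + LPS. Both strains had a higher level than LPS alone, and CRL1505 the highest. The ratios of 0.84 and 0.45 were under the threshold. The second *Aim2* probe gave 1.12 with CRL1505, past 2-fold, and 0.06 with CRL1506. The call for *Aim2* with CRL1505 thus depended on the probe, while its direction did not.

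*Nlrc4* encodes the adapter and oligomerising partner of the NAIP proteins, which bind bacterial flagellin or the parts of secretion systems. Its level was -1.67 with LPS, -3.43 with CRL1505 + LPS and -2.002 with CRL1506 + LPS. In signal this was 233, 47.8 and 174 units, and the lowest signals well above background were 33.3, 29.6 and 33.1 on these arrays. The CRL1505 array stood apart from the other 2 and lay close to background. The ratio was -1.76 with CRL1505, or 3.39-fold lower, and 97.8% of the genes compared had a higher ratio. It was -0.33 with CRL1506, and between the strains *Nlrc4* was 2.70-fold lower with CRL1505. Among dim genes, with a mean level under -1, 12.9% of 6054 were at least 2-fold lower with CRL1505 than with LPS. Within the same comparison *Casp1* and *Nlrc4* differed by 2.98, against 0.57 with CRL1506.

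*Mefv* encodes pyrin, a sensor that responds when bacterial toxins inactivate RhoA. Its level was -2.03 with LPS, -3.52 with CRL1505 + LPS and -3.26 with CRL1506 + LPS, from signals of 182, 44.9 and 73.0 units. Both lactobacilli arrays were lower than LPS alone and near each other. The ratio was -1.50 with CRL1505, or 2.82-fold lower, and -1.23 with CRL1506, or 2.34-fold lower. Of the genes compared, 96.5% had a higher ratio with CRL1505 and 97.6% with CRL1506. Among dim genes 6.67% of 6701 were at least 2-fold lower with CRL1506 than with LPS. The difference between the strains was -0.27 and lay within the SD of repeated dim spots, 0.29 over 5 probes. The second *Mefv* probe was well above background with LPS alone, which allowed only a bound of -0.15 for CRL1506 and no value for CRL1505.

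*Naip5* encodes a receptor for bacterial flagellin that engages NLRC4. It had 2 probes that disagreed in direction for CRL1505, and both are shown by 30 of their 60 bases on build mm9, the brighter one by its last 30, where capitals mark bases in runs shared with promoters, and the dimmer one by its first 30.
Naip5 brighter probe, chr13:100981843-100981902, minus strand: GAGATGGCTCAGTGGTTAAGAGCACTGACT
Naip5 dimmer probe, chr13:101015657-101015716, minus strand: aagatgctgagaggtggcaaagccaggtac

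In the brighter *Naip5* probe, 38 of its 60 bases lay in 20-base runs that the promoters of 37 of 27025 genes also held, or 0.137%, and 3 other gene probes shared such a run. Only these promoter windows and the gene probes were searched, so copies of the stretch elsewhere in genes or transcripts were not counted. None of the 16 other member probes shared a 20-base run with a promoter or another probe. The level of the brighter probe was 5.19 with LPS, 5.53 with CRL1505 + LPS and 5.81 with CRL1506 + LPS, which gave ratios of 0.34 and 0.62. Both lactobacilli arrays were higher than LPS, and CRL1506 was the highest. This probe stands for *Naip5* in the member counts, medians and figures, and its 0.62 is the upper end of the member range with CRL1506. The 2 probes with the shared run on the same strand, named for other genes, had median ratios of 0.47 and 0.69. The dimmer *Naip5* probe had levels of -2.90, -3.14 and -2.49, which gave ratios of -0.24 and 0.41. It lists the transcripts of *Naip1* and *Naip6* beside that of *Naip5*, and a further one that the arrays name *Naip7*. The direction of *Naip5* with CRL1505 is therefore uncertain, and the part of the shared bases in its signal was not tested.

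**Figure D3:**
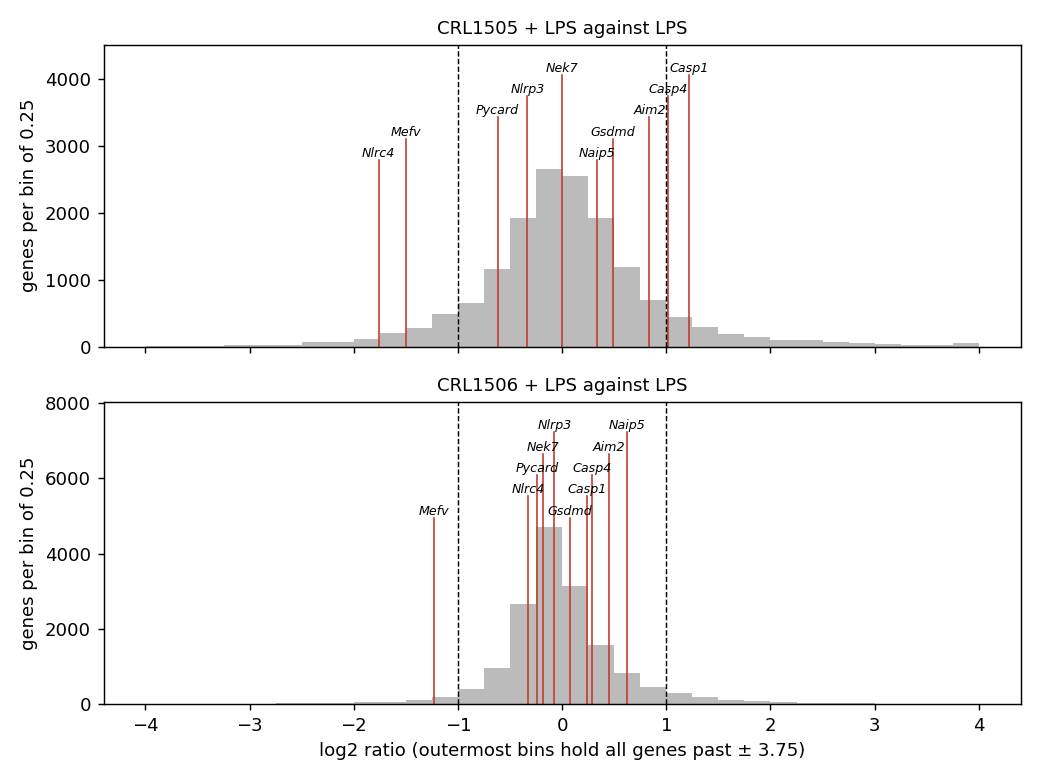
Distribution of log2 ratios to LPS (x axis, bins of 0.25) over the 15585 genes compared for CRL1505 + LPS (top) and the 16271 compared for CRL1506 + LPS (bottom), with the 10 inflammasome genes as red lines and 2-fold as dashed lines. *Nlrc4* and *Mefv* lie in the lower tail for CRL1505, and *Mefv* alone lies past 2-fold for CRL1506.

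The values depended on the scale set between arrays. Relative to the 75th percentile, a shift by the median of gene spots moved the median ratio of all genes by 0.30 for CRL1505 and by -0.20 for CRL1506. Scaling to the spiked-in control RNAs moved it by -0.54 and -0.09, and a 75th percentile over probes well above background on all arrays by -0.12 and 0.09. The signal at the 75th percentile was lower on the CRL1505 + LPS array, 517 units, than with LPS, 743, and with CRL1506 + LPS, 698. Relative to the median gene, the ratio of *Casp1* with CRL1505 was 1.16 and ranged from 0.99 to 1.16 over 7 other normalizations and background corrections. On the same footing *Casp4* was 0.96, from 0.82 to 0.96, *Nlrc4* was -1.82, from -1.82 to -1.02, and *Mefv* was -1.55, from -1.55 to -0.76. The shift by the median, the spike-in scaling and the other 75th percentile each take off a constant per array. They could not change a ratio relative to the median gene, so these ranges come from the remaining alternatives. Without that reference, *Casp1* with CRL1505 was at least 2-fold higher in 5 of the 7, with exceptions at 0.68 for the spike-in scaling and 0.99 for the deposited log2 table. *Casp4* was so in only 2 of the 7, with values from 0.47 to 1.31. *Nlrc4* was at least 2-fold lower with CRL1505 in 6 of the 7, the exception being -0.94 with normexp background correction. *Mefv* was so in 5 of the 7 for each strain, with -0.69 and -0.71 by normexp and -0.87 and -0.82 in the deposited table for CRL1505 and CRL1506. The directions of *Gsdmd* and *Naip5* with CRL1505 turned under spike-in scaling, at -0.06 and -0.20.

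**Figure D4:**
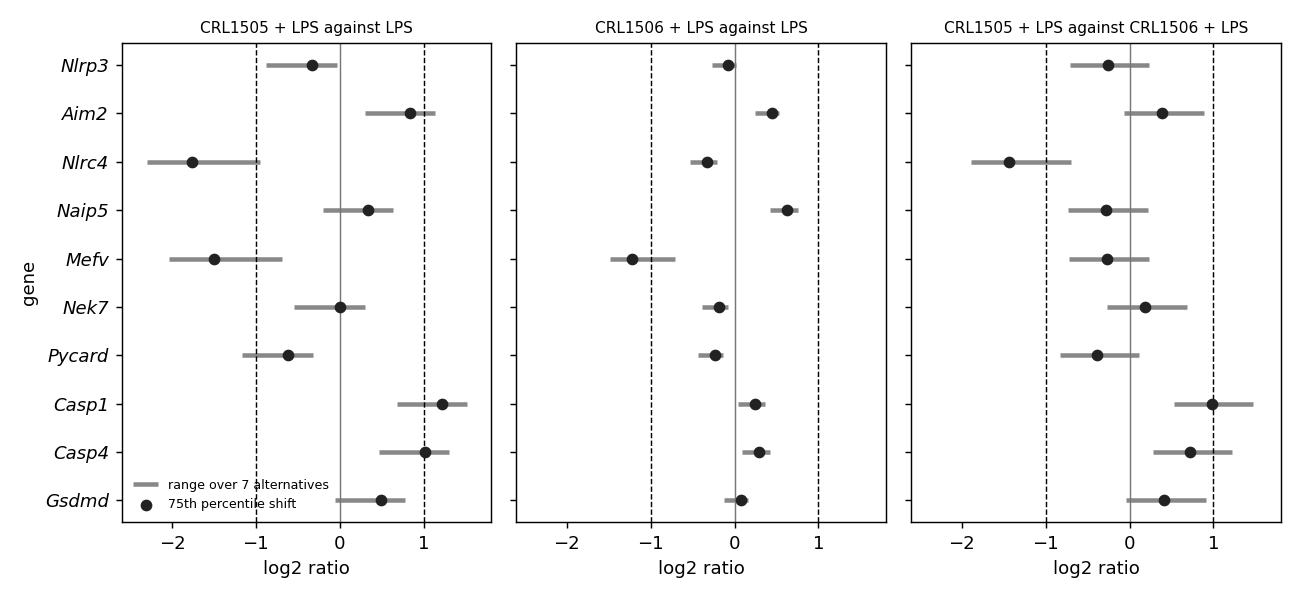
Log2 ratio (x axis) of each inflammasome gene in the 3 comparisons, with points for the 75th percentile shift, grey bars for the range over 7 other normalizations and background corrections, and dashed lines at 2-fold. With CRL1505 against LPS, *Casp1*, *Casp4* and *Aim2* stay above 0 and *Nlrc4*, *Mefv*, *Pycard* and *Nlrp3* below 0 over the whole bar.

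Other genes of the pathway were counted in 5 lists, with 49 genes on the array. With CRL1505, 39 could be compared with LPS, of which 16 passed 2-fold on the higher side and 2 on the lower side, with a median of 0.59, where 9.9% and 8.41% of all genes compared did. With CRL1506, 42 could be compared, of which 2 were higher and 2 lower, with a median of 0.06, near the 5.67% and 3.53% of all genes. Between the strains 17 of 42 were higher and 3 lower with CRL1505, where 8.96% and 7.44% of all genes were. The same shares of all genes apply to the counts of the single lists below.

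The IL-1 family cytokines are the substrates or companions of the complex. *Il1b*, the precursor of IL-1beta, had levels of 5.81 with LPS, 6.87 with CRL1505 + LPS and 4.77 with CRL1506 + LPS. The strains lay on opposite sides of LPS, at ratios of 1.07 and -1.04. Its 3 probes ranged from -0.05 to 1.4996 with CRL1505 and from -1.28 to -1.04 with CRL1506. *Il18*, the other precursor that caspase-1 cleaves, had levels of 1.54, 3.05 and 1.23 and ratios of 1.51 and -0.31. *Il1a*, which signals through the same receptor as IL-1beta, had the ratios 3.33 and -0.25. Of this list 3 of 4 genes compared were at least 2-fold higher with CRL1505, and 1 passed 2-fold under spike-in scaling. With CRL1506 1 of 5 was higher, *Il33* with a lower bound of 1.25, and 1 of 5 was lower, *Il1b*.

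*Aim2* belongs to the HIN-200 proteins, a family of interferon-inducible DNA-binding proteins encoded side by side on chromosome 1. Of 9 relatives listed, 4 had a probe under the listed name. These 4 were all at least 2-fold higher with CRL1505 than with LPS and none with CRL1506. *Ifi205* had ratios of 3.53 with CRL1505 and 0.01 with CRL1506. *Mndal* had 2.44 and 0.75, *Ifi204* 1.90 and 0.41, and *Ifi202b* 1.69 and 0.58. The ratio of *Aim2* itself with CRL1505, 0.84, was below those of all 4.

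Among regulators of inflammasomes, 7 of 20 compared were at least 2-fold higher with CRL1505 and 2 lower, and 1 of 20 was higher with CRL1506. Of all genes compared, 9.9% were higher and 8.41% lower with CRL1505, and 5.67% higher with CRL1506. The 2 lower regulators and the 1 with CRL1506 thus lay near these shares. The guanylate-binding proteins, which open bacteria and their vacuoles to sensing, had ratios of 3.31 for *Gbp5*, 2.15 for *Gbp2* and 2.09 for *Gbp3* with CRL1505. With CRL1506 they had 0.16, -0.31 and 0.52. The 2 probes of *Gbp5* ranged from 1.08 to 3.31 with CRL1505 and from 0.16 to 2.01 with CRL1506, and between the strains they differed in direction, from -0.93 to 3.14. *Trim30a*, a negative regulator of NLRP3 signalling, had 2.18 and 1.17 and was the only regulator past 2-fold for both strains by its brightest probe. Its 3 probes ranged from 0.58 to 2.18 with CRL1505, from 1.12 to 1.99 with CRL1506 and from -1.40 to 1.02 between the strains, so both the call with CRL1505 and the order of the strains depended on the probe. *Zbp1*, a sensor of Z-form nucleic acids, had 1.73 with CRL1505 and 0.41 with CRL1506. The other *Zbp1* probe gave 1.66 and 1.18, past 2-fold for both strains. *Tnfaip3*, the deubiquitinating enzyme A20, had 1.11 and -0.29. *Serpinb1a*, an inhibitor of caspase-1 activation, reached at least 1.87 with CRL1505 and was not well above background with LPS. The lower genes with CRL1505 were *Nlrx1*, a mitochondrial member of the NLR family, at -1.44, with a second probe at 0.04, and *Panx1*, a membrane channel that releases ATP, at -1.06. With CRL1506 *Panx1* had -0.05. A second *Panx1* probe, measured against LPS for CRL1506 only, gave -1.04, past 2-fold. *Gm12250*, an immunity-related GTPase, passed 2-fold by its brightest probe only between the strains, at 1.16, with ratios to LPS of 0.69 and -0.46. Its other probe gave 1.07 for CRL1505 against LPS, past 2-fold.

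Among the other sensors, *Naip2* and *Naip6* were at least 2-fold higher with CRL1505, at 1.43 and 1.52, and had 0.88 and 0.60 with CRL1506. *Naip2* binds a part of bacterial secretion systems and *Naip6* flagellin, and both act through NLRC4, the member with the lowest ratio for CRL1505. *Nlrp12* was lower with CRL1506, with a bound of -1.80. *Naip7* was lower with CRL1505 than with CRL1506, with a bound of -1.58. Of the cell death effectors outside the members, which were caspases, gasdermins and the membrane-rupture protein *Ninj1*, 0 of 5 compared were past 2-fold with CRL1505 and 0 of 6 with CRL1506. This list is too short to set such counts apart from the shares over all genes. Between the strains 1 of 6 effectors was higher with CRL1505, *Casp8*, an initiator of apoptosis, at 1.04. This call lay just past the threshold and was lost in several of the other normalizations.

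**Figure D5:**
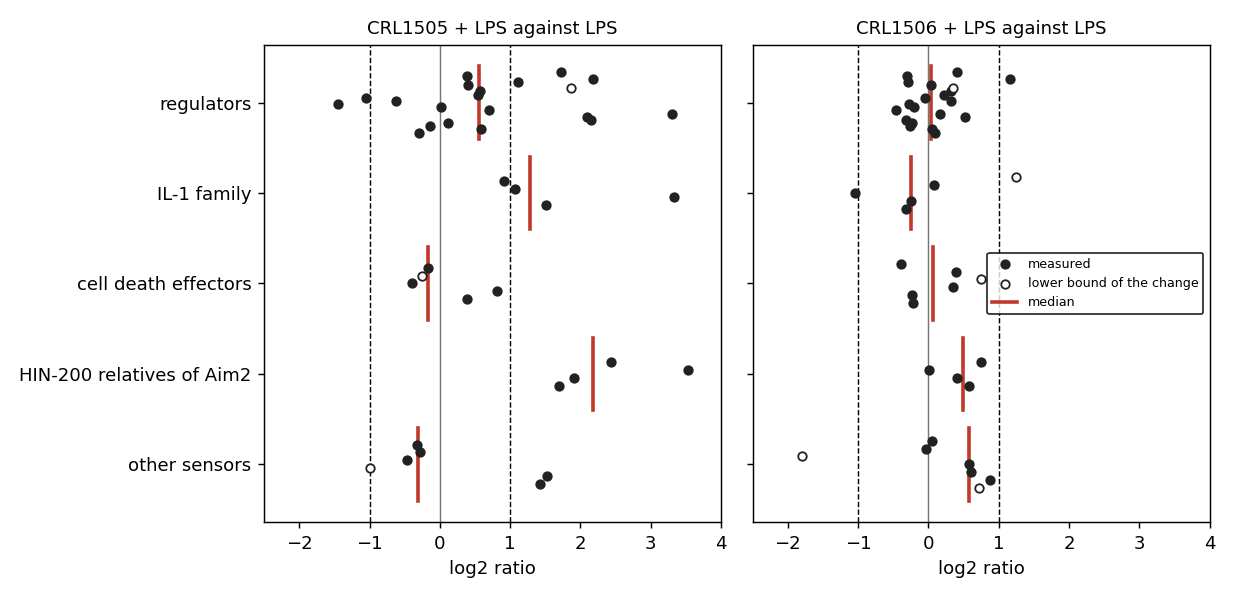
Log2 ratio to LPS (x axis) of each gene in 5 lists of the inflammasome pathway for CRL1505 + LPS (left) and CRL1506 + LPS (right), with filled points measured on both arrays, open points lower bounds of the change, red bars list medians and dashed lines at 2-fold. With CRL1505 all 4 relatives of *Aim2* that could be compared and 3 of 4 IL-1 family genes lie past 2-fold on the higher side, and with CRL1506 none and 1 of 5 do.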

How the data were processed

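RNA of RAW 264.7 cells was measured on 1-colour SurePrint G3 Mouse GE arrays, 1 per condition. Per the file headers, the deposited array files come from Feature Extraction 12.0.3.1, and their processed signal is an intensity with background subtracted. A further deposited table holds log2 values that were normalized between arrays, and served here as an alternative. Per the file headers, probe positions are on mm9.

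From each array's log2 processed signals, the 75th percentile over its gene spots was taken off (Python 3.11.15, NumPy 2.4.6, pandas 2.3.3), and spots marked as outliers were dropped. The brightest probe stood for a gene. Probes well above background on neither array gave no ratio, and on 1 array a bound. Genes were counted at 2-fold, the threshold the methods state. Their t-test could not be run on single arrays and no p-value is printed. The number of arrays limits the precision. Quantile, cyclic loess and normexp (offset 50) alternatives used limma 3.58.1 in R 4.3.3. Scripts were tested on simulated data with spot noise only, in which bright genes alone were changed, by more than 2-fold. That test did not cover dim probes, bounds or changes near the threshold. Symbols, gene positions and promoters were taken from RefSeq GRCm38.p6. All 10 members and, from the other lists, the genes past 2-fold and *Il1b* and *Il18* are named. The members and lists were chosen with earlier results of these data known. A gene of these lists is not reported here and was left out of their counts.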

Additional observations from a re-analysis of the deposited data

Results flagged for a closer look

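For 8 genes outside the 10 members the strains lay on opposite sides of LPS alone by the brightest probe, by more than the median SD found among the probes of single genes. These were *Il1b* (1.07 with CRL1505 and -1.04 with CRL1506 on the log2 scale), *Il18* (1.51 and -0.31), *Il1a* (3.33 and -0.25), *Gbp2* (2.15 and -0.31), *Tnfaip3* (1.11 and -0.29), *Casp8* (0.81 and -0.23), *Gm12250* (0.69 and -0.46) and *Naip7* (a bound of -0.9997 and a ratio of 0.58). For *Il1b* this did not hold for every probe, since its 3 probes ranged from -0.05 to 1.4996 with CRL1505. With CRL1506 the values of *Casp8* and *Il1a* lay close to that SD, 0.22. The median over all genes was itself -0.06 with CRL1506, and the rule did not allow for it. With 1 array per condition the difference between the strains was not tested, and both ratios share the LPS array. The second probe named *Pycard*, which lies on the strand opposite to the gene, had a signal of 61.6 units on the CRL1506 + LPS array and was not well above background on the other 2.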

How the results depend on the processing

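Of 360 recomputed ratios of the 10 members, 301 moved by less than 1 SD between a gene's probes, 59 moved by more, and no called ratio changed sign. The settings on dim probes, outlier spots and uneven spots returned the same value for every member. For dim probes and outliers this was fixed, since all 10 probes were well above background and none was an outlier. Averaging over probes could not move a member with 1 measured probe. The 301 thus include ratios that could not move. Of those that moved, 40 did so under the spike-in scaling or the shift by the median. The count of members past 2-fold with CRL1505, 4 here, was 2 with normexp background correction and 1 in the deposited log2 table, and with spike-in scaling it was 3, all lower (*Mefv*, *Nlrc4* and *Pycard*). With CRL1506, the count of 1 became 0 with normexp and 0 in the deposited table, and between the strains the count of 1 became 0 in both. Normexp was run with an offset of 50 units, and *Nlrc4* and *Mefv* had signals of 47.8 and 44.9 units on the CRL1505 + LPS array. The cause of the lost calls was not tested. Between the strains the shift by the median gave 2, *Casp1* and *Casp4*, in place of *Nlrc4*. By construction the thresholds changed the counts too. At 4-fold they were 0 in all 3 comparisons, and at 1.5-fold they were 2 with CRL1506 and 3 between the strains. Of 210 recomputed counts for the pathway lists, 156 stayed within 1.5 times and 54 moved. Over the 7 other normalizations and background corrections with CRL1505, the count for the relatives of *Aim2* was 4 in each and that for the other sensors, 2 here, was 2 or 3. Over the same 7 the IL-1 family count of 3 with CRL1505 ranged from 1 to 4, and that of 2 with CRL1506 from 0 to 2. The count of cell death effectors, 0 with CRL1505, became 1 under the shift by the median, normexp, the deposited table and no filter on dim probes. The methods' t-test and a block for the slide could not be run with 1 array per condition. No paired analysis was possible because each condition has 1 array. Signal over background limits *Nlrc4* and *Mefv*, which lay near background on the CRL1505 + LPS array.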
